A study of Mus musculus with 6 samples.

Results

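Intestinal calcium absorption and its control by vitamin D were described through 5 genes, *S100g*, *Trpv6*, *Atp2b1*, *Vdr* and *Cyp24a1*, of the 32285 genes listed for every library. The genes were chosen by their symbols, and each of the 5 symbols matched 1 gene. The libraries were 10x Genomics 3′ single-cell libraries of epithelium of the jejunum, a part of the small intestine. They came from overnight-fasted male wild-type C57BL/6J mice about 30 weeks old, after 16 weeks on diet and 5 weeks after surgery. Mice were fed a low-fat diet and sham-operated (LFD sham), fed a high-fat diet and sham-operated (HFD sham), or fed a high-fat diet and given a vertical sleeve gastrectomy (HFD VSG), an operation that removes most of the stomach along its greater curvature. No low-fat group had the gastrectomy, so the operation was seen only on the high-fat diet. Each group gave a library labelled crypts and a library labelled villi, which makes 6 libraries, and cells of 3 mice were pooled in each LFD sham and HFD sham library and of 2 mice in each HFD VSG library. Both libraries of a group came from the same mice, so the fractions are not independent of each other.

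Dietary calcium crosses the small intestine through enterocytes, the absorptive cells of the villus. In the transcellular route calcium enters through the apical channel TRPV6, is carried through the cytoplasm by calbindin, the product of *S100g*, and leaves across the basolateral membrane through plasma membrane calcium pumps such as the product of *Atp2b1*. Calcitriol, the active form of vitamin D, binds the nuclear receptor encoded by *Vdr*, which with a retinoid X receptor acts on genes of this route and on *Cyp24a1*, whose enzyme breaks calcitriol down.

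*S100g* (ENSMUSG00000040808) lies on the minus strand at X:162961992-162964599 and overlaps *Ctps2* on the opposite strand, *Trpv6* (ENSMUSG00000029868) on the minus strand at 6:41620624-41636405, *Atp2b1* (ENSMUSG00000019943) on the plus strand at 10:98914406-99026143, *Vdr* (ENSMUSG00000022479) on the minus strand at 15:97854425-97910630, and *Cyp24a1* (ENSMUSG00000038567) on the minus strand at 2:170482708-170497145, where it overlaps *Pfdn4* on the opposite strand (mouse build GRCm38, GENCODE vM21 gene bounds, exons and introns together). Whether the counting used the strand is not given in the sources used here, so reads of *S100g* and *Ctps2*, or of *Cyp24a1* and *Pfdn4*, may not be told apart where the genes overlap.

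The 250 bases before the transcription start of *S100g* and of *Trpv6* are shown because these genes encode the binding protein and the channel that the vitamin D receptor is known to act on, and because the first was the gene that differed most and the other was not counted at all. Both are from RefSeq (GRCm38.p6), read 5′ to 3′ on the minus strand, at chrX:162964600-162964849 for *S100g* and chr6:41636406-41636655 for *Trpv6*. Capitals mark matches, on either strand, to 4 hexamers that are written forms of the half-site the receptor dimer reads, listed with their frequencies after the sequences.
S100g: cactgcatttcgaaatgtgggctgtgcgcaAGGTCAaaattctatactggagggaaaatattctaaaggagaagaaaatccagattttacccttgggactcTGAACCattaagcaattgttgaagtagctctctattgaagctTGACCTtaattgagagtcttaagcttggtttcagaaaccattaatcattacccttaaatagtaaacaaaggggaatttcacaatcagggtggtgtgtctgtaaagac
Trpv6: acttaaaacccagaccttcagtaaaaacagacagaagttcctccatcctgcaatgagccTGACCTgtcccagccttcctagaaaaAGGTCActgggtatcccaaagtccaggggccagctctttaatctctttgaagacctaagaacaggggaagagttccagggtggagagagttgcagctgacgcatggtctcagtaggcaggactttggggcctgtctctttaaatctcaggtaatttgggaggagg

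In the *S100g* window AGGTCA was matched on the gene's strand from base -220 to -215 and on the other strand from -107 to -102, and GGTTCA on the other strand from -149 to -144, counted back from the transcription start. In the *Trpv6* window AGGTCA was matched from -191 to -186 on the other strand and from -165 to -160 on the gene's strand. The *Vdr* window held AGTTCA on the other strand from -91 to -86. Over 32851 windows of the same length, 14% held AGGTCA. The share was 8.85% for the variant GGTTCA. It was 11.6% for GGGTCA, found in none of the windows of *S100g*, *Trpv6*, *Atp2b1* and *Vdr*, the 4 genes matched to a window. It was 11.8% for AGTTCA, so single matches are common. A direct repeat of 2 such hexamers with 3 bases between them, the form the receptor dimer is best known for, stood in 0.0396% of windows and in none of those of the 4 genes. A match is a stretch of letters and not a measured binding site.

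Called barcodes numbered 7765 to 12012 per library with 60522766 to 155522445 unique molecular identifiers (UMIs, each standing for 1 captured transcript). Of 59457 called barcodes, 24011 passed the filters, 22759 of them epithelial and 1252 immune-like. The HFD VSG villus-labelled library stood apart, with a median of 34724 UMIs per enterocyte-like cell against 13453 to 17808 in the other 5 libraries and with a median mitochondrial share of 7.45% over called barcodes against 16.1% to 22.0%. The labels crypts and villi did not follow the cell content. Stem-like cells made up 1.03% to 2.75% of cells in the crypt-labelled libraries and 2.62% to 9.44% in the villus-labelled ones, and Paneth-like cells 0.831% to 1.59% against 2.17% to 6.06%, although both are crypt cells. The fractions are therefore called crypt-labelled and villus-labelled below, and no direction along the crypt and villus is drawn from them. Pairs of libraries shared 17 to 43 called barcode sequences and 1 to 11 that passed the filters.

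The enterocyte-like class held 9438 cells in 6 of 19 clusters, 943 to 2445 per library. All 13 enterocyte markers, such as *Sis* and *Fabp1*, had UMIs in every library, and their summed level was 70909.5 to 105982.1 counts per 1000000 UMIs (CPM) in these cells against 5761.5 to 25106.8 in the next highest named class. Clusters that met no class rule kept a number and their leading genes. Levels below are UMIs summed over the cells of a class in a library and scaled to CPM. With 1 pooled library per group there was no replicate, so no difference was tested, and every interval is a 95% interval for counting error only.

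*Trpv6*, the apical entry channel, had 0 UMIs in every class of all 6 libraries and in the droplets without a cell. In enterocyte-like cells the upper Poisson limits ran from 0.0833 CPM in the HFD VSG crypt-labelled library to 0.245 CPM in the LFD sham villus-labelled library. *Trpv6* was thus not detectable at this depth in the jejunal epithelium of any diet or surgery group, and its level could not be compared between them. No library came from another part of the intestine. *Trpv5*, the related channel of the kidney, also had 0 UMIs in enterocyte-like cells.

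*S100g*, the cytoplasmic calcium binder, differed most between groups among the 3 genes that could be measured in enterocyte-like cells. In enterocyte-like cells of the crypt-labelled libraries it was at 3.79 CPM (3.11 to 4.58; 107 UMIs) in LFD sham, 12.9 CPM (11.4 to 14.6; 261 UMIs) in HFD sham and 23.0 CPM (21.6 to 24.4; 1017 UMIs) in HFD VSG. In the villus-labelled libraries it was at 6.38 CPM (5.17 to 7.79; 96 UMIs), 14.3 CPM (12.7 to 16.0; 302 UMIs) and 52.8 CPM (50.4 to 55.3; 1801 UMIs) in the same order. The order LFD sham, HFD sham, HFD VSG thus held in both fractions. The intervals cover counting error only, so how far they lie apart does not measure the spread between mice or libraries.

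**Figure D1:**
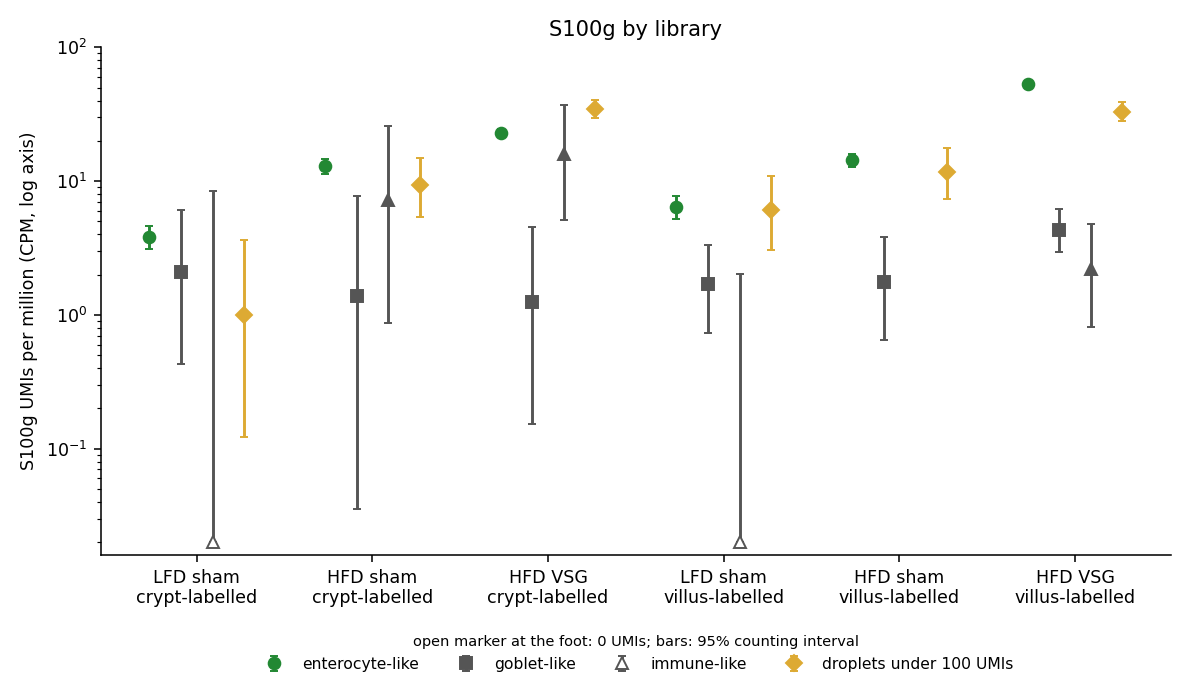
*S100g* in each of the 6 libraries, in CPM, for enterocyte-like cells with 95% counting intervals and, beside them, for goblet-like and immune-like cells and for droplets under 100 UMIs, on a log axis where an open marker at the foot stands for 0 UMIs. Enterocyte-like levels ran from 3.79 to 52.8 CPM and were highest in both HFD VSG libraries, where the droplets were also highest, at 33.0 and 34.8 CPM.

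The diet comparison asked how the high-fat diet differed from the low-fat diet in sham-operated mice. *S100g* was higher in HFD sham by 1.77 on the log2 scale (1.44 to 2.10) in the crypt-labelled libraries and by 1.17 (0.83 to 1.51) in the villus-labelled ones. The background of genes higher by over 0.5 in this comparison, among those with a mean of at least 20 UMIs, was 6.43% of 10364 genes in the crypt-labelled and 6.81% of 10263 in the villus-labelled libraries. The crypt-labelled value was 1.04 with at most 10% mitochondrial UMIs and 2.38 after thinning, a random draw of 1500 UMIs from each cell. The villus-labelled value was 1.96 with at most 10% mitochondrial UMIs, 0.66 over all epithelial barcodes, 0.70 over all called barcodes and 0.48 with the unnamed clusters 0 and 11 added.

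The surgery comparison set HFD VSG beside HFD sham. *S100g* was higher after gastrectomy by 0.83 (0.64 to 1.03) in the crypt-labelled libraries and by 1.88 (1.71 to 2.06) in the villus-labelled ones, where 9.23% of 10736 and 21.5% of 10759 genes were higher by over 0.5. The villus-labelled background of 21.5% shows that many genes differed between these libraries, one of which is the deep HFD VSG villus-labelled library. Against LFD sham, *S100g* was higher in HFD VSG by 2.60 (2.31 to 2.90) and 3.05 (2.75 to 3.36), with backgrounds of 12.5% and 23.2%. The crypt-labelled surgery value was 0.33, under 0.5, with free RNA subtracted by fractions estimated from immune-like cells, 1.66 with at most 10% mitochondrial UMIs and 1.26 after thinning, and the villus-labelled one 1.24 over all epithelial barcodes. Against LFD sham the values ran from 1.86 to 3.64 and from 1.84 to 4.05 over the alternatives. The last comparison shares its libraries with the first 2 and adds no independent measurement.

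The share of enterocyte-like cells with an *S100g* UMI followed depth as well as level. Unthinned shares were 3.82%, 8.78% and 18.4% in LFD sham, HFD sham and HFD VSG of the crypt-labelled libraries and 5.98%, 12.7% and 49.1% in the villus-labelled ones. After each cell was thinned to 1500 UMIs, the shares were 0.302% (0.111 to 0.656), 1.44% (0.905 to 2.17) and 3.23% (2.57 to 4.01) in the crypt-labelled libraries and 0.816% (0.374 to 1.54), 1.82% (1.19 to 2.65) and 6.04% (4.61 to 7.76) in the villus-labelled ones. The values had the same order of groups, with intervals that overlapped between LFD sham and HFD sham in the villus-labelled libraries. One cell in each of the LFD sham and HFD sham villus-labelled libraries was too shallow and was left out.

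Immune-like cells, which should lack *S100g*, gave the background from free RNA. Their thinned shares were 0% of 127 cells (exact 95% upper limit 2.86%), 2.41% of 83 cells and 0% of 74 cells (upper limit 4.86%) in the crypt-labelled LFD sham, HFD sham and HFD VSG libraries. In the villus-labelled LFD sham and HFD VSG libraries they were 0% of 543 cells (upper limit 0.677%) and 0.48% of 417 cells, and median depths were 3137 to 5937 UMIs before thinning. The share of 6.04% in enterocyte-like cells of the HFD VSG villus-labelled library was above this background, whose interval ended at 1.72%, while the 3.23% of the HFD VSG crypt-labelled library was under the 4.86% that 0 of 74 cells allows. The shares of 0.302% in the LFD sham crypt-labelled library and of 0.816% in the LFD sham villus-labelled one, whose interval of 0.374% to 1.54% includes 0.677%, were also not set apart from the background. In the crypt-labelled HFD sham library the share of 1.44% in enterocyte-like cells was below that of immune-like cells, which rests on 2 cells with an interval from 0.293% to 8.44%, so this share is not read as expression. Goblet-like cells of the same library had a thinned share of 0% of 93 cells (upper limit 3.89%) and a level of 1.39 CPM, against 12.9 CPM in enterocyte-like cells. The HFD sham villus-labelled library held 6 immune-like cells and gave no such background, so of the 6 shares only that of the HFD VSG villus-labelled library was shown to be above the immune-like one. The 74 to 127 immune-like cells of the crypt-labelled libraries were too few to bound such shares closely. Goblet-like shares were 0% of 152 cells (upper limit 2.40%) in the HFD VSG crypt-labelled and 1.05% (0.218 to 3.045) in the villus-labelled library. Both intervals ended below those of enterocyte-like cells, which was not so in LFD sham and HFD sham. By level, goblet-like cells were below enterocyte-like cells in all 6 libraries. In the LFD sham crypt-labelled library this was 2.08 against 3.79 CPM, and the 3 goblet-like UMIs were too few to order the classes.

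Droplets without a cell (under 100 UMIs) moved with the *S100g* result. They held *S100g* at 1.00, 9.27 and 34.8 CPM in the crypt-labelled LFD sham, HFD sham and HFD VSG libraries and at 6.11, 11.7 and 33.0 CPM in the villus-labelled ones. In the HFD VSG crypt-labelled library the droplets were above the enterocyte-like cells at 23.0 CPM, and in the HFD VSG villus-labelled library below them at 52.8 CPM. Goblet-like cells, which share the same free RNA, were at 1.25 to 4.35 CPM over the 6 libraries. Immune-like cells were at 7.18 CPM (0.87 to 25.9; 2 UMIs) in the HFD sham and 15.8 CPM (5.14 to 37.0; 5 UMIs) in the HFD VSG crypt-labelled library, with intervals that include the enterocyte-like levels of 12.9 and 23.0 CPM, and at 2.20 CPM (6 UMIs) in the HFD VSG villus-labelled library. With free RNA subtracted by the fractions estimated from enterocyte genes in immune-like cells, *S100g* was at 4.89, 14.1 and 17.7 CPM in the crypt-labelled and 6.33, 14.7 and 54.6 CPM in the villus-labelled libraries, and the surgery difference in the crypt-labelled libraries was 0.33 in place of 0.83. With the fractions stated in the study's methods, the levels were 3.88, 14.2 and 22.5 CPM and 6.39, 14.7 and 53.2 CPM, and that difference was 0.67. The surgery difference in the villus-labelled libraries was 1.89 and 1.86 under these subtractions, against 1.88 without one, and the first of these rests on a fraction for the HFD sham villus-labelled library that comes from 6 immune-like cells. The crypt-labelled value of 0.33 rests on fractions of 0.262 in HFD sham and 0.302 in HFD VSG. These came from immune-like cells with medians of 3245 and 3564 UMIs, against 13762 and 17808 in enterocyte-like cells. The fraction stated in the study's methods was slightly above 0.262 for the HFD sham library and far below 0.302 for the HFD VSG one. The stated fractions of both HFD sham libraries were higher than those of all other libraries, which bears on every comparison with HFD sham. Goblet-like cells of the HFD VSG crypt-labelled library, at 1.25 CPM, lay below what 0.302 of the droplet level would give.

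Between fractions of a group, *S100g* in enterocyte-like cells was higher in the villus-labelled library by 0.75 (0.34 to 1.16) in LFD sham, 0.15 (-0.09 to 0.40) in HFD sham and 1.20 (1.09 to 1.31) in HFD VSG. The HFD sham interval includes 0.

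**Figure D2:**
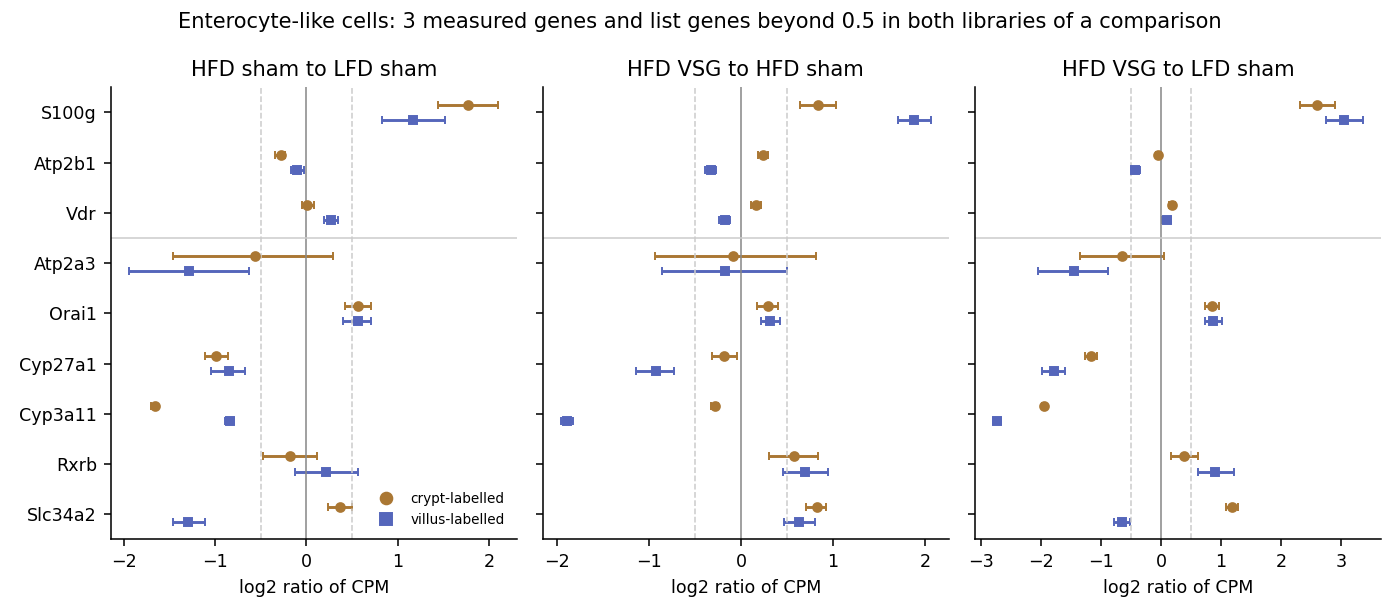
Log2 ratios of CPM of *S100g*, *Atp2b1* and *Vdr* and, under the line, of the list genes described at the end, in enterocyte-like cells for the 3 comparisons, crypt-labelled and villus-labelled libraries apart, with 95% counting intervals and dashed lines at 0.5 either way. *S100g* lies between 0.83 and 3.05, while *Atp2b1* and *Vdr* lie between -0.43 and 0.27.

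The *S100g* difference was looked at within the enterocyte-like clusters, since their proportions differed between libraries. Cluster 4 held 5.62% of enterocyte-like cells in the HFD VSG villus-labelled library and 29.6% in the LFD sham crypt-labelled one, and cluster 2 from 13.8% to 38.2%. In cluster 1, led by *Leap2* and *Apoc2*, *S100g* was at 4.82, 18.2 and 25.3 CPM in the crypt-labelled and 13.1, 15.3 and 54.1 CPM in the villus-labelled LFD sham, HFD sham and HFD VSG libraries. In cluster 2, led by *Reg3b* and *Reg1*, the levels were 5.46, 12.7 and 26.7 CPM and 5.19, 14.5 and 58.7 CPM in the same order. In cluster 4, led by *Pmp22*, *Enpp3* and *Apoa4*, they were 0 (0 UMIs in 588 cells), 8.16 and 27.2 CPM and 0.626, 22.3 and 38.4 CPM. The levels had the group order of the whole class in each of these clusters and in both fractions, though not each step was beyond counting error.

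Cluster 5, led by *Plb1* and the MHC class II genes *H2-Aa* and *Cd74*, had *S100g* at 1.07, 4.18 and 7.30 CPM in the crypt-labelled and 0.609, 3.35 and 15.4 CPM in the villus-labelled libraries. It was the lowest of the 4 large clusters in the 4 high-fat libraries, with an interval that overlapped that of cluster 4 in the HFD sham crypt-labelled library. In the LFD sham libraries clusters 4 and 5 held too few UMIs to be ordered. The surgery difference in the crypt-labelled libraries was 0.47 (0.20 to 0.75) in cluster 1, 1.07 (0.69 to 1.47) in cluster 2, 1.74 (1.09 to 2.46) in cluster 4 and 0.80 (-0.06 to 1.76) in cluster 5, the last within counting error. In the villus-labelled libraries it was 1.82 (1.54 to 2.11), 2.02 (1.74 to 2.31), 0.79 (0.09 to 1.51) and 2.20 (1.16 to 3.45) in the same order of clusters. The diet difference in the villus-labelled libraries was 0.23 (-0.21 to 0.67) in cluster 1 and 1.48 in cluster 2, so that in cluster 1 it was within counting error. The highest *S100g* levels of the class were in the HFD VSG villus-labelled library, at 108 CPM (88.9 to 129.5) in cluster 14, led by the interferon-induced genes *Ifit1* and *Isg15*, on 28 cells, and at 98.5 CPM (85.5 to 113) in cluster 17, led by *Pla2g4c* and *Duoxa2*, and their intervals overlapped.

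**Figure D3:**
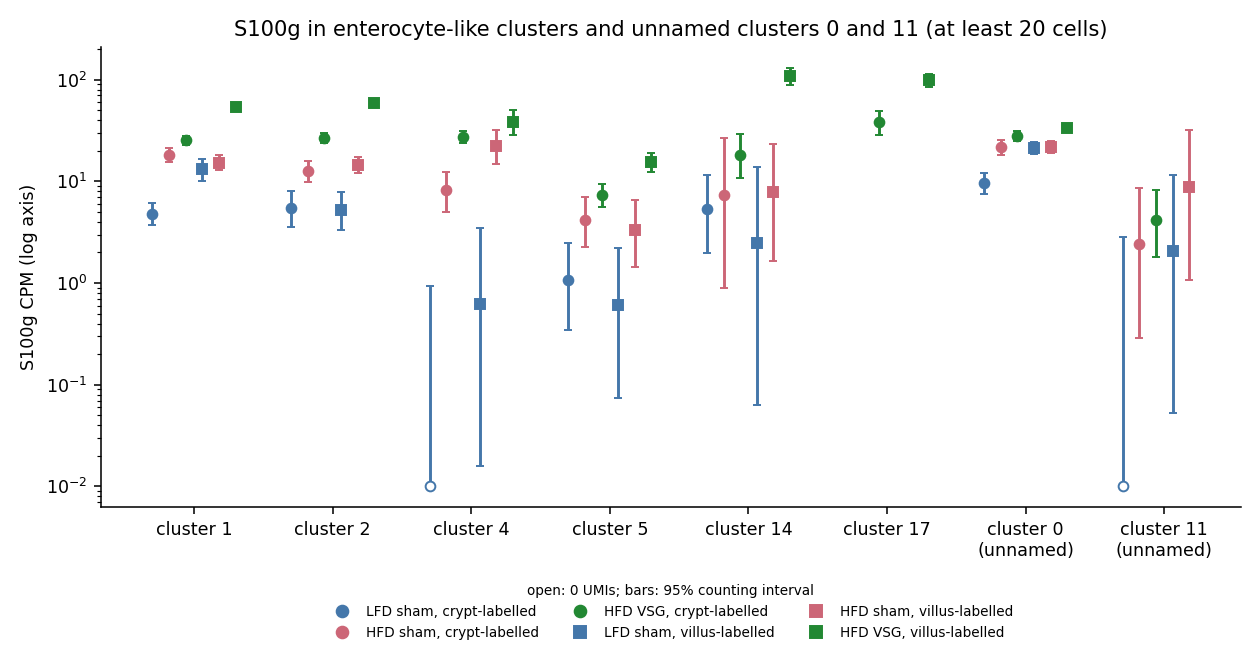
*S100g* in CPM by enterocyte-like cluster, and in the unnamed clusters 0 and 11, for each library with at least 20 cells, with 95% counting intervals on a log axis and open markers for 0 UMIs. In clusters 1, 2, 4 and 5 HFD VSG is the highest of the 3 groups in both fractions.

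*S100g* UMIs were also counted in other classes, where the background from free RNA has to be read beside them. By the median over libraries with at least 20 cells, cluster 0, led by *Car4* and *Ms4a18*, was at 21.8 CPM (9.61 to 33.2), cluster 7, led by *Dmbt1* and *Ccnb2*, at 15.4 CPM (9.70 to 22.7), enterocyte-like cells at 13.6 CPM (3.79 to 52.8) and stem-like cells at 13.5 CPM (1.64 to 30.0). These ranges overlapped, so the order is not set beyond the spread of the libraries. With the libraries pooled, the order of the 4 was cluster 0 at 26.1, stem-like at 23.3, enterocyte-like at 22.0 and cluster 7 at 15.3 CPM. Pooling weighs libraries by their UMIs. The deep HFD VSG villus-labelled library weighed most in cluster 0, stem-like cells and cluster 7, and the HFD VSG crypt-labelled one in enterocyte-like cells. The other epithelial classes and clusters had medians from 0.923 CPM in Paneth-like cells to 11.01 CPM in cluster 6, which is led by genes of damaged droplets. Cluster 11, led by the villus tip genes *Ada*, *Nt5e* and *Slc28a2*, had a median of 2.41 CPM.

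Subtraction of free RNA lowered these classes by unequal parts in the HFD VSG crypt-labelled library, where the droplets were at 34.8 CPM. The same fraction of the droplet profile was taken from every class, so low levels fell by the largest part. Free RNA was not measured class by class. After subtraction with the fractions from immune-like cells, *S100g* there was at 0 CPM in place of 9.45 CPM in cycling progenitor-like cells, 12.9 in place of 19.97 CPM in cluster 7, 26.0 in place of 30.0 CPM in stem-like cells and 24.8 in place of 28.0 CPM in cluster 0. The fraction for this library came from immune-like cells with a median of 3564 UMIs, against 22492 UMIs in cycling progenitor-like cells. Goblet-like cells there, at 1.25 CPM unsubtracted, lay below what that fraction of the droplet level would give. The level in cycling progenitor-like cells of that library rests on 15 UMIs and depends on the fraction used, so it is not read as expression here.

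In stem-like cells the order of the groups was that of enterocyte-like cells in the crypt-labelled libraries and another one in the villus-labelled libraries. *S100g* was at 1.64, 14.1 and 30.0 CPM (1, 7 and 58 UMIs) in the crypt-labelled and 12.9, 4.44 and 29.0 CPM (46, 7 and 356 UMIs) in the villus-labelled LFD sham, HFD sham and HFD VSG libraries. In the villus-labelled libraries the diet difference had the opposite sign to that in enterocyte-like cells, at -1.54 (-2.93 to -0.39), and the surgery difference was 2.71 (1.65 to 4.03). In cluster 0 the diet difference was 1.17 (0.75 to 1.60) in the crypt-labelled and 0.04 (-0.24 to 0.32) in the villus-labelled libraries, and the surgery difference 0.37 (0.09 to 0.66) and 0.60 (0.39 to 0.81). Cluster 7 had surgery differences of -0.19 (-0.79 to 0.45) and 0.13 (-0.25 to 0.53), both within counting error. Differences between classes were not tested.

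**Figure D4:**
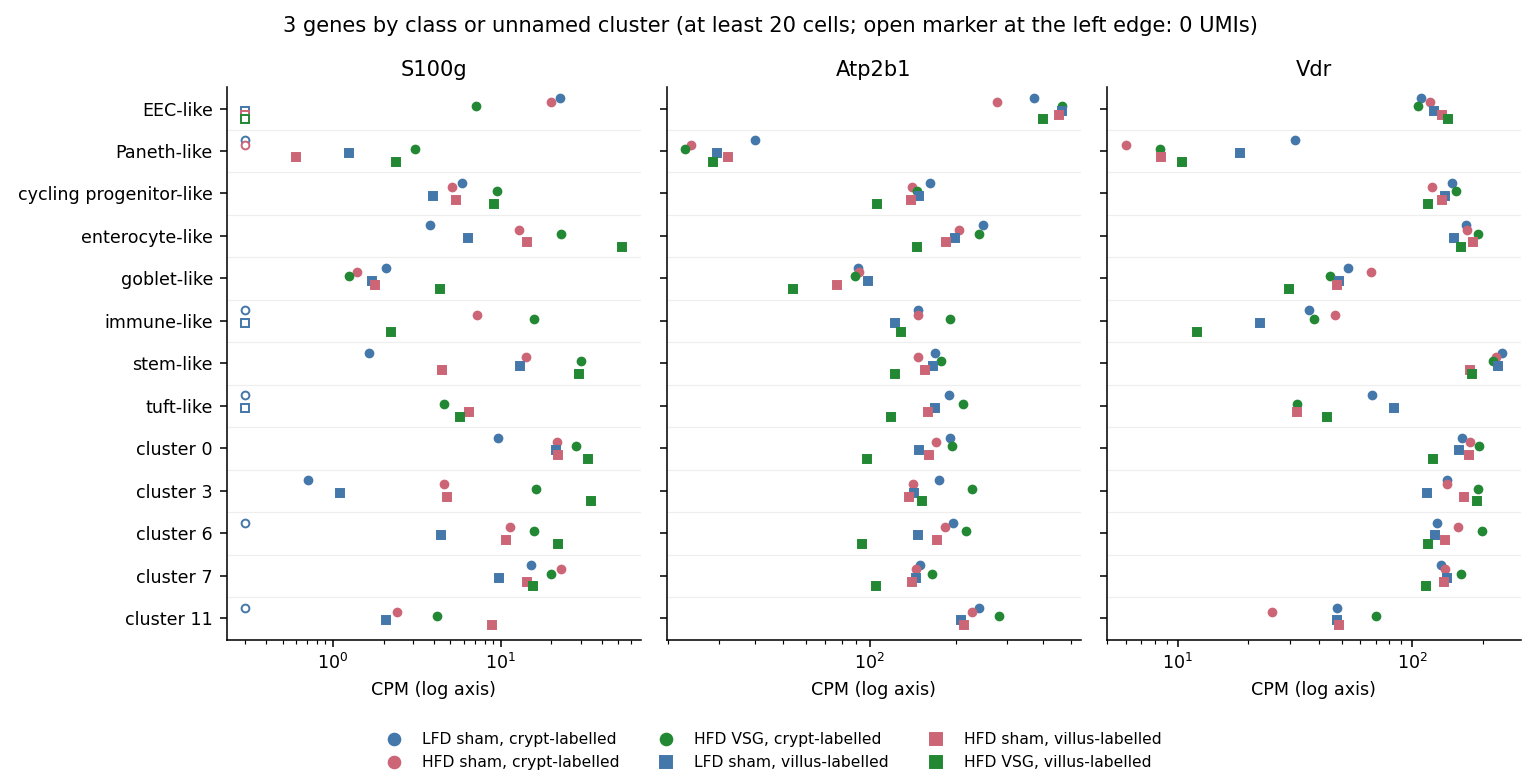
*S100g*, *Atp2b1* and *Vdr* in CPM on a log axis for each class or numbered cluster with at least 20 cells, 1 point per library, open at the left edge for 0 UMIs. *Atp2b1* is highest in enteroendocrine (EEC)-like cells, at 278 to 466 CPM, and *Vdr* is lowest in Paneth-like cells, at 5.99 to 31.5 CPM.

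*S100g* also varied along a villus score, the summed level of villus tip genes such as *Ada* and *Krt20* less that of lower villus genes such as *Reg1* and *Reg3b*, by which enterocyte-like cells of each library were cut into 3 bins of equal number, lower, middle and upper. In LFD sham it was at 6.24, 2.54 and 0.526 CPM (79, 25 and 3 UMIs) from the lower to the upper bin of the crypt-labelled library and at 7.27, 8.38 and 0.987 CPM (50, 43 and 3 UMIs) in the villus-labelled one. The upper to lower difference was -3.57 (-5.88 to -1.97) and -2.88 (-5.21 to -1.25), and 20.5% and 23.1% of genes were lower by over 0.5 in the same cut.

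In HFD sham the levels were 13.8, 15.1 and 6.99 CPM in the crypt-labelled and 14.5, 14.2 and 14.2 CPM in the villus-labelled library, with differences of -0.98 (-1.62 to -0.37; background 21.8% lower) and -0.03 (-0.46 to 0.40; background 11.4% lower and 8.81% higher). In HFD VSG they were 22.0, 22.3 and 24.8 CPM and 57.1, 58.1 and 41.0 CPM, with differences of 0.17 (-0.05 to 0.39; background 11.6% higher) and -0.48 (-0.66 to -0.30; background 10.5% lower). With all UMIs, *S100g* in enterocyte-like cells was thus lower in the upper than in the lower bin in both LFD sham libraries. It was also lower in 2 of the 4 high-fat libraries and within counting error in the others. Cluster 11, led by tip genes of the score, was unnamed and lay outside these bins. In the HFD VSG crypt-labelled library it held *S100g* at 4.14 CPM (1.79 to 8.15; 8 UMIs), against 24.8 CPM in the upper bin. Cluster 11 held at most 3 *S100g* UMIs in any other library. Depth moved with the score, since median UMIs per cell were 19141 in the lower and 6803 in the upper bin of the LFD sham crypt-labelled library, 18088 and 6489 in the LFD sham villus-labelled one, and 35702 and 32543 in the HFD VSG villus-labelled one. With every cell thinned to 1500 UMIs, the difference turned to 0.17 in the HFD sham crypt-labelled library and was 0.70 in the HFD sham and -1.38 in the HFD VSG villus-labelled library, while the LFD sham libraries held too few UMIs to give a value. The HFD VSG crypt-labelled difference of 0.17 became -0.07 with tip genes only, -0.37 with 5 bins and -0.42 with clusters 0 and 11, and the LFD sham crypt-labelled one -1.51 with tip genes only. The difference between groups in this pattern was not tested. The bins are cut within each library, so an upper bin need not stand for the same villus position in each. *Ada* in the upper bin was at 224, 338 and 76.4 CPM in LFD sham, HFD sham and HFD VSG of the crypt-labelled libraries. In the villus-labelled ones it was at 163, 21.0 and 8.92 CPM in the same order. The score is a range and not a cell type, with 79 to 192 cells of a library within 0.1 of the cut with fewer such cells and 91 to 194 within 0.1 of the other.

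**Figure D5:**
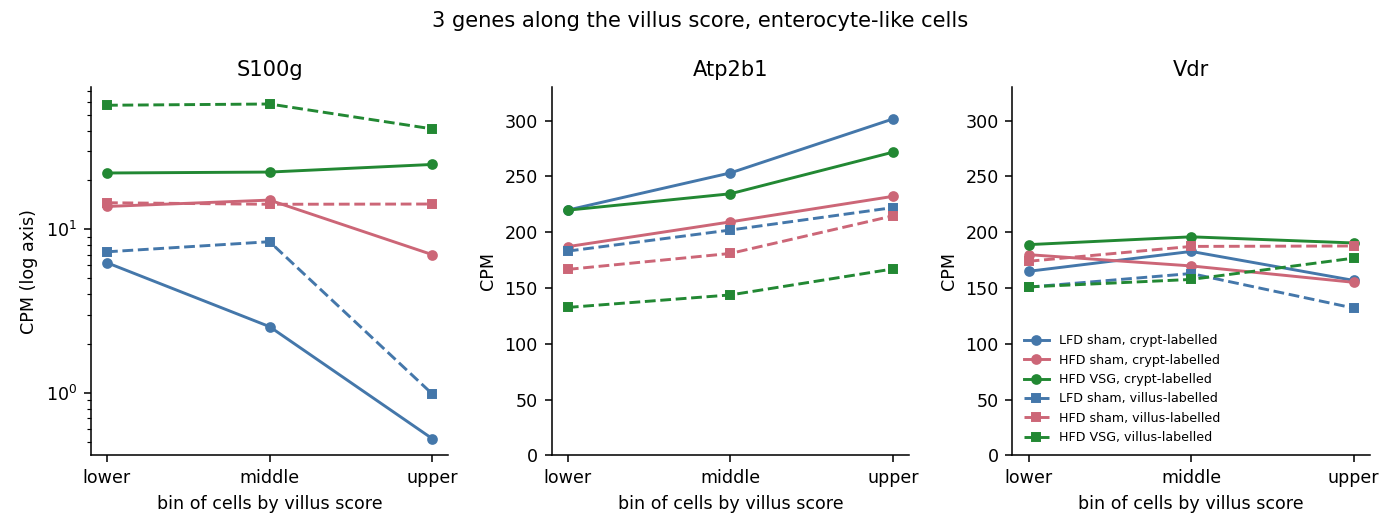
*S100g*, *Atp2b1* and *Vdr* in CPM in the lower, middle and upper bin of enterocyte-like cells by villus score, 1 line per library (log axis for *S100g*). *S100g* is under 1 CPM in the upper bin of both LFD sham libraries and at 41.0 CPM in that of the HFD VSG villus-labelled library. Bins are cut within each library, and tip gene levels of the upper bins differ between libraries.

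*Atp2b1*, the basolateral calcium pump, differed little between groups in enterocyte-like cells taken as a whole. In enterocyte-like cells it was at 248 CPM (242 to 254), 204.1 CPM (198 to 210.4) and 240.3 CPM (236 to 245) in LFD sham, HFD sham and HFD VSG of the crypt-labelled libraries. In the villus-labelled libraries it was at 197 CPM (190.4 to 205), 184 CPM (178 to 190.1) and 147 CPM (143 to 151). It was lowest in the HFD VSG villus-labelled library, the one that stood apart in depth.

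Against LFD sham, *Atp2b1* in HFD sham differed by -0.28 (-0.34 to -0.23) in the crypt-labelled and -0.10 (-0.17 to -0.03) in the villus-labelled libraries. After gastrectomy it was higher by 0.24 (0.18 to 0.29) in the crypt-labelled libraries and differed by -0.33 (-0.39 to -0.27) in the villus-labelled ones, so the direction differed between fractions. HFD VSG differed from LFD sham by -0.05 (-0.09 to 0.00) and -0.43 (-0.50 to -0.36). None of these passed 0.5, but the villus-labelled value against LFD sham was -0.58 with free RNA subtracted by immune-like fractions, -0.51 with at most 10% mitochondrial UMIs and -0.53 with clusters 0 and 11, and the villus-labelled surgery value was -0.52 with clusters 0 and 11. The villus-labelled diet value turned to 0.07 over all epithelial barcodes. Some single classes and clusters passed 0.5. In cluster 0 the surgery difference was 0.18 (0.08 to 0.28) and -0.72 (-0.81 to -0.64), and in EEC-like cells 0.74 (0.14 to 1.39) and -0.18 (-0.51 to 0.16). Against LFD sham, HFD VSG was at -0.04 (-0.39 to 0.31) and -0.87 (-1.07 to -0.68) in goblet-like cells. In enterocyte-like cluster 14 it was at -0.17 (-0.44 to 0.10) and -0.84 (-1.27 to -0.41). Lower genes by over 0.5 were 8.89% and 9.85% for diet and 3.17% and 16.8% for surgery in the crypt-labelled and villus-labelled libraries. Thinned shares of enterocyte-like cells with an *Atp2b1* UMI were 21.4% to 31.7%, and those of immune-like cells 16.4% to 27.0% in the 5 libraries that held enough, so these shares set the classes apart less than those of *Vdr* below.

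By class, *Atp2b1* was highest in EEC-like cells, the hormone cells of the gut, with a median of 427 CPM over libraries, and was 208 to 282 CPM in cluster 11. Paneth-like cells had the lowest levels at 23.0 to 40.1 CPM, followed by goblet-like cells at 54.1 to 99.1 CPM. These 2 secretory classes did not overlap with the enterocyte-like range of 147 to 248 CPM. *Atp2b1* was higher in the upper than in the lower villus bin in 6 of 6 libraries, by 0.28 to 0.46 (0.23 to 0.50 over the alternatives), while *S100g* was not higher there beyond counting error in any library.

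*Vdr*, the vitamin D receptor, was at 170 CPM (165 to 174), 171 CPM (166 to 177) and 192 CPM (188 to 196) in enterocyte-like cells of LFD sham, HFD sham and HFD VSG in the crypt-labelled libraries. In the villus-labelled libraries it was at 151 CPM (145 to 157), 182 CPM (177 to 188) and 161 CPM (157 to 165). The highest library was 192 CPM and the lowest 151 CPM, a narrower span than that of *S100g*.

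The diet difference of *Vdr* was 0.01 (-0.05 to 0.08) and 0.27 (0.19 to 0.35), and the surgery difference 0.16 (0.11 to 0.22) and -0.18 (-0.24 to -0.12), in the crypt-labelled and villus-labelled libraries. As for *Atp2b1*, the surgery difference had opposite signs in the 2 fractions. None passed 0.5 with all UMIs in the class as a whole, but the villus-labelled diet value was 0.51 with at most 10% mitochondrial UMIs and 0.67 after thinning. In enterocyte-like cluster 4 the diet difference was -0.01 (-0.20 to 0.17) and 0.91 (0.61 to 1.21). HFD VSG there differed from LFD sham by 0.27 (0.13 to 0.41) and 1.28 (1.00 to 1.56), the last on 53 HFD VSG cells. Villus-labelled diet values of clusters 1, 2, 5 and 14 ran from 0.03 to 0.42. In Paneth-like cells the diet difference was -2.39 (-4.35 to -0.90) and -1.13 (-1.78 to -0.53), on 4 to 119 UMIs per library. Thinned shares of enterocyte-like cells with a *Vdr* UMI were 15.8% to 24.8%, against 1.92% to 5.41% of immune-like cells in the 5 libraries that held enough, so *Vdr* stood above the free RNA background.

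*Vdr* was highest in stem-like cells, at 176 to 242 CPM with a median of 225 CPM, and next in enterocyte-like cells at 151 to 192 CPM and cluster 0 at 122 to 193 CPM, ranges that overlapped. It was lower in goblet-like cells at 29.9 to 66.8 CPM, in cluster 11 at 25.3 to 70.3 CPM and in Paneth-like cells at 5.99 to 31.5 CPM. These 3 ranges lay below those of stem-like cells, enterocyte-like cells and cluster 0 without overlap, while EEC-like cells, at 106 to 142 CPM, overlapped with cluster 0. Along the villus score *Vdr* differed by -0.21 to 0.23 between the upper and lower bins of enterocyte-like cells, with both signs present. Cluster 11, led by tip genes and at 25.3 to 70.3 CPM, lay outside these bins. Over the alternatives the values ran from -0.42 in the HFD sham crypt-labelled library with clusters 0 and 11 to 0.55 in the HFD VSG villus-labelled library after thinning.

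*Cyp24a1*, the calcitriol-degrading enzyme and a classical target of the receptor, was near the limit of detection. Enterocyte-like cells held 3 UMIs, in 3 cells of the HFD sham villus-labelled library, and 0 in the other 5 libraries. Among all epithelial barcodes that passed the filters there were 16 UMIs, 15 of them in the HFD sham villus-labelled library and 1 in a stem-like cell of the LFD sham villus-labelled library. Of the 15, cluster 0 held 8 UMIs in 6 cells. Among all called barcodes the HFD sham villus-labelled library held 21 UMIs in 19 barcodes, or 0.252 CPM, and the other 5 libraries 0 or 1 each. Over epithelial barcodes of the villus-labelled libraries *Cyp24a1* in HFD VSG differed from HFD sham by -3.60 on the log2 scale with the 0 UMIs of HFD VSG set to a floor of 3 UMIs per library, and the counting interval of the difference ended at -3.12. One pooled library carried the gene, so nothing is drawn about diet or surgery.

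Genes whose levels followed each member most closely were named over 75 units of class and library, among 7392 genes, by Pearson correlation of log2(CPM + 1). The units share libraries, depth and free RNA, so the values are descriptions. For *S100g* they were *Cmbl* (r = 0.738), the keratin gene *Krt19* (0.734) and the microsomal glutathione transferase gene *Mgst1* (0.731). For *Atp2b1* they were *Ptbp3* (0.918), *Nptn* (0.907) and *Rybp* (0.899), and for *Vdr* the thyroid hormone receptor gene *Thra* (0.925), *Slc35g1* (0.886) and *Etfa* (0.875). *Trpv6* and *Cyp24a1* had too few UMIs for this.

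Around the 5 genes, a list of 47 genes of calcium transport and vitamin D signalling was followed in enterocyte-like cells, of which 31 to 33 had a mean of at least 20 UMIs in a comparison. For diet, 3 list genes were higher and 4 lower by over 0.5 in the crypt-labelled libraries and 4 higher and 5 lower in the villus-labelled ones, each of 31 measured. Over all genes 6.43% were higher and 8.89% lower in the crypt-labelled libraries and 6.81% and 9.85% in the villus-labelled ones. List medians were -0.14 and -0.10 against -0.01 and 0.01 over all genes. For surgery, 5 were higher and 0 lower in the crypt-labelled libraries and 4 higher and 5 lower in the villus-labelled ones, each of 32 measured. Over all genes 9.23% were higher and 3.17% lower in the crypt-labelled libraries and 21.5% and 16.8% in the villus-labelled ones, so the share of the list that was higher in the villus-labelled libraries was below that of all genes. List medians were 0.16 and -0.17 against 0.12 and 0.01. For HFD VSG against LFD sham, 5 were higher and 3 lower, and 5 higher and 10 lower, against backgrounds of 12.5% higher and 6.66% lower in the crypt-labelled and 23.2% higher and 20.9% lower in the villus-labelled libraries, with list medians of 0.04 and -0.19 against 0.09 and 0.00.

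A pair of enzymes linked to vitamin D, *Cyp3a11* and *Cyp27a1*, were lower on the high-fat diet in both fractions. *Cyp3a11*, a cytochrome known to be induced through the receptor, was at 1238.3 CPM in LFD sham and 392 CPM in HFD sham of the crypt-labelled libraries, and at 539 and 301 CPM in the villus-labelled ones, differences of -1.66 and -0.84. In HFD VSG it was at 320.1 and 81.0 CPM. *Cyp27a1*, a sterol hydroxylase able to hydroxylate vitamin D, was at 69.4 and 35.0 CPM in the crypt-labelled and 38.0 and 21.0 CPM in the villus-labelled LFD sham and HFD sham libraries, and its HFD VSG levels differed from LFD sham by -1.17 and -1.79. Both enzymes thus had the opposite direction to *S100g*. The listed targets of the receptor did not share 1 direction. *Abcb1a*, a drug efflux transporter named here after its values were seen, was higher in HFD sham than in LFD sham by 0.24 and 0.68, but in HFD VSG it differed from HFD sham by -0.45 and -1.51 and from LFD sham by -0.21 and -0.83.

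*Orai1*, the pore of store-operated calcium entry, was higher in HFD sham than in LFD sham by 0.56 in each fraction, at 39.4 against 26.7 CPM and 49.9 against 33.8 CPM, and was at 48.0 and 61.9 CPM in HFD VSG. *Atp2a3*, a calcium pump of the endoplasmic reticulum, was lower by 0.56 and 1.28 in HFD sham, on 18 to 57 UMIs per library, and its crypt-labelled interval included 0. After gastrectomy, *Rxrb*, a retinoid X receptor, was higher by 0.57 and 0.69 and *Slc34a2*, a sodium phosphate cotransporter, by 0.82 and 0.63. With diet *Slc34a2* differed by 0.37 and -1.29, with opposite signs in the 2 fractions. The calcium-sensing receptor gene *Casr*, *Calb2*, *Atp2b3* and *Rxrg* had 0 UMIs in enterocyte-like cells, and *Calb1* and *Cyp27b1*, which encodes the enzyme that makes calcitriol, had 1 each.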

How the data were processed

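The 6 libraries were analysed from the matrices of UMI counts that the authors deposited, raw and filtered. The submitters' processing notes name Cell Ranger 6.0.0 and mm10, and the annotation used for counting is not given in the sources used here. Barcodes with at least 750 genes and at most 20% mitochondrial UMIs were kept after the doublets were removed, at a rate that grew with the number of called barcodes, by a score from 2 simulated doublets per barcode and 20 neighbours. Cells were integrated and clustered with Seurat 5.3.0 and sctransform 0.4.2 in R 4.3.3 (2000 genes, 30 components, resolution 0.4, the 5 genes kept out). A cluster was named when over 50% of a marker list, and at least 3 markers, reached 2 times the mean of the median cluster in at least 10% of its cells, unless its 10 leading genes went against the name.

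UMIs were summed by class and library and scaled to CPM, with exact Poisson intervals, exact conditional binomial intervals for ratios and exact binomial (Clopper-Pearson) intervals for shares, at 95% (Python 3.11.15, scipy 1.17.1, numpy 2.4.6). Intervals cover counting error only. Sums under 3 UMIs were set to 3 in a ratio, and no ratio was made where both were at most 3. A log2 size of 0.5 is a description. Of the steps, only the interval for ratios was tested on simulated data, with counts drawn from a Poisson model. Cells are not replicates, and with 1 pooled library per group no test was made. Named genes were the 5 genes, list genes beyond 0.5 the same way in both fractions of a comparison, and for each of them with at least 100 UMIs in enterocyte-like cells its 3 closest genes by correlation. The genes and lists were chosen with earlier results of these data known. Alternatives covered free RNA, filters, doublets, depth, scaling, clustering and the score.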

Additional observations from a re-analysis of the deposited data

How the results depend on the processing

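No paired analysis was possible because each diet and surgery group had 1 library per fraction, from the same pooled mice, and the labels give no replicate numbers. No library could be left out without removing a group from its fraction. A change of sign is called reversed where the counting interval of the reported value excluded 0. Differences are log2 values in enterocyte-like cells, given as crypt-labelled then villus-labelled where both are listed. Keeping doublets, requiring 1500 genes, resolution 0.8, no longer barring the 5 genes from the clustering and totals without mitochondrial genes moved none of the 18 differences of *S100g*, *Atp2b1* and *Vdr* beyond its counting interval. Of the 5 genes, only *S100g* was among the clustering genes once they were no longer barred. *S100g* kept its sign in all 3 comparisons under every alternative run. *Trpv6* and *Cyp24a1* were not among the genes followed under the alternatives. The causes of the moves below were not tested.

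For *S100g*, the diet difference was 1.04 and 1.96 with at most 10% mitochondrial UMIs, 2.38 in the crypt-labelled libraries after thinning to 1500 UMIs, and in the villus-labelled libraries 0.66 over all epithelial barcodes, 0.70 over all called barcodes and 0.48 with clusters 0 and 11 added, an alternative chosen after seeing the data. The surgery difference was 1.66 and 2.09 at 10% mitochondrial UMIs, 1.26 (crypt-labelled) after thinning, 0.33 (crypt-labelled) with free RNA subtracted by immune-like fractions, and in the villus-labelled libraries 1.24 over epithelial barcodes, 1.48 over called barcodes and 1.37 with clusters 0 and 11. HFD VSG against LFD sham was 3.64 (crypt-labelled) after thinning, 1.86 (crypt-labelled) with immune-like fractions, 2.26 and 1.90 over epithelial barcodes, 2.28 and 1.84 with clusters 0 and 11, and 2.18 over called barcodes and 4.05 at 10% mitochondrial UMIs in the villus-labelled libraries.

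*Atp2b1* reversed in 5 values, none of them large. The villus-labelled diet difference was 0.07 over epithelial barcodes and 0.00 with free RNA subtracted by the stated fractions, and HFD VSG against LFD sham in the crypt-labelled libraries was 0.01 over epithelial barcodes, 0.05 over called barcodes and 0.01 after thinning. Its diet difference was otherwise -0.06 (crypt-labelled) with stated fractions and, villus-labelled, -0.17 with immune-like fractions, -0.03 over called barcodes and -0.02 with clusters 0 and 11. Its surgery difference was 0.31 and -0.41 with immune-like fractions, 0.02 and -0.46 with stated fractions, 0.34 and -0.27 over called barcodes, 0.12 (crypt-labelled) under median-of-ratios scaling and, villus-labelled, -0.44 over epithelial barcodes and at 10% mitochondrial UMIs, -0.18 after thinning and -0.52 with clusters 0 and 11. Against LFD sham, HFD VSG was -0.00 and -0.58 with immune-like fractions, -0.14 (crypt-labelled) under median-of-ratios scaling and, villus-labelled, -0.29 over called barcodes, -0.51 at 10% mitochondrial UMIs, -0.30 after thinning and -0.53 with clusters 0 and 11.

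*Vdr* reversed by this rule in 1 value, HFD VSG against LFD sham in the villus-labelled libraries with clusters 0 and 11 (-0.09). Its crypt-labelled diet difference of 0.01, whose interval included 0, also changed sign after thinning. Its diet difference was 0.11 (crypt-labelled) with immune-like fractions, 0.19 (crypt-labelled) with stated fractions, 0.11 and 0.51 at 10% mitochondrial UMIs, -0.07 and 0.67 after thinning and 0.18 (villus-labelled) over called barcodes. Its surgery difference was 0.26 and -0.11 over called barcodes, 0.00 and -0.26 with stated fractions and, crypt-labelled, 0.23 with immune-like fractions, 0.06 at 10% mitochondrial UMIs, 0.05 under median-of-ratios scaling and 0.37 after thinning, and -0.33 (villus-labelled) with clusters 0 and 11. HFD VSG against LFD sham was 0.34 and 0.01 with immune-like fractions, 0.30 and 0.44 after thinning, 0.08 (crypt-labelled) under median-of-ratios scaling and 0.31 (villus-labelled) at 10% mitochondrial UMIs.

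Between villus bins, *S100g* reversed by this rule in the HFD sham crypt-labelled library after thinning (0.17), where it was 0.70 in HFD sham and -1.38 in HFD VSG of the villus-labelled libraries. The score from tip genes only gave -1.51 in LFD sham and -0.07 in HFD VSG of the crypt-labelled libraries and -0.72 in the HFD VSG villus-labelled one. In the HFD VSG crypt-labelled library 5 bins gave -0.37 and clusters 0 and 11 gave -0.42, against 0.17. The HFD sham villus-labelled and HFD VSG crypt-labelled values, whose intervals included 0, thus also changed sign.

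With a size of 1, the list counts were 1 lower (crypt-labelled) and 1 higher and 3 lower (villus-labelled) for diet, 0 higher (crypt-labelled) and 2 higher and 2 lower (villus-labelled) for surgery, and 3 higher (crypt-labelled) and 2 higher and 3 lower (villus-labelled) for HFD VSG against LFD sham. Raising the minimum mean to 100 UMIs gave 3 lower for diet in the villus-labelled libraries. It gave 3 higher for HFD VSG against LFD sham in the crypt-labelled ones. Median-of-ratios scaling gave 1 lower for surgery in the crypt-labelled libraries. Shares over all genes are not given at these settings, so these counts are not read as a result about the list.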
